A study of Mus musculus with 6 samples.

Results

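The MYC, MAX and MXD network is a small family of transcription factors that compete for the same DNA site. The 10 genes examined here were Myc and Mycn (activators), Max and Mlx (dimerisation partners), and Mxd1, Mxi1, Mxd3, Mxd4, Mnt and Mga (antagonists of MYC), out of 18193 genes measured. A probe set was taken for a gene when the platform annotation gave that gene as its only symbol, which yielded 26 probe sets of 45037, and the one of highest mean log2 intensity led for each gene. All 10 genes were measured. The RNA came from uterine horns of 8-week-old ovariectomized females of mixed background, all of them GATA2 f/f, which by convention denotes a floxed Gata2 allele on both chromosomes, and no recombinase is named. One group of 3 arrays followed treatment with P4, the usual abbreviation of progesterone, and the other group of 3 followed oil, the carrier. Dose, time after treatment and the number of animals behind each array are not stated in the labels. The 3 arrays of a group may therefore be technical repeats, and the p-values speak only of the variation among the arrays at hand.

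Proteins of this network carry a basic helix-loop-helix leucine zipper and bind DNA as pairs at the E-box, a short palindromic site. MYC and MYCN pair with MAX and activate genes for cell growth, among them genes for ribosome production, nucleotide and polyamine synthesis. MXD proteins, MXI1 and MNT also pair with MAX and recruit the SIN3 and histone deacetylase corepressor to the same sites, while MGA joins MAX in a polycomb complex. MLX resembles MAX, pairs with several MXD proteins and MNT, and with MLXIP and MLXIPL it drives genes that respond to glucose. In the uterus, MYC is known as a gene that estrogen induces during the growth of the epithelium.

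After P4, Mlx transcript rose, while Mxi1, Mxd4 and Mycn fell, and Myc had higher values on all P4 arrays without passing the test. In limma, with p-values adjusted by the Benjamini-Hochberg method across the 18193 genes and calls made under 0.05, 4 of the 10 genes were called, 1 higher and 3 lower. Over all genes 13% were called, 6.08% higher and 6.94% lower. Shares of all genes, here and below, include dim genes unless stated, and dim genes were called less often. Without the dimmest 30% of genes 20.4% of the rest were called, and without the dimmest 50% of genes 26.3%. With the dimmest 30% removed, 2 of the 10 network genes were higher and 3 lower. When replicate number entered the fit as a block, 2 of the 10 were higher and 4 lower, against 9.29% and 11.6% of all genes (20.9% called in all). The P4 and oil arrays did not overlap for 7 of the 10 genes, against 31.8% of all genes (14.3% with P4 above oil and 17.5% below). The median log2 difference of the 10 genes was -0.13, against -0.01 for all genes. Scaling to the hybridisation controls, RNAs added to every sample, moved the median of all genes up by 0.11. Intensities are linear array units, and log2 differences are P4 minus oil on the scale of log2(intensity + 16), given with their SE.

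**Figure D1:**
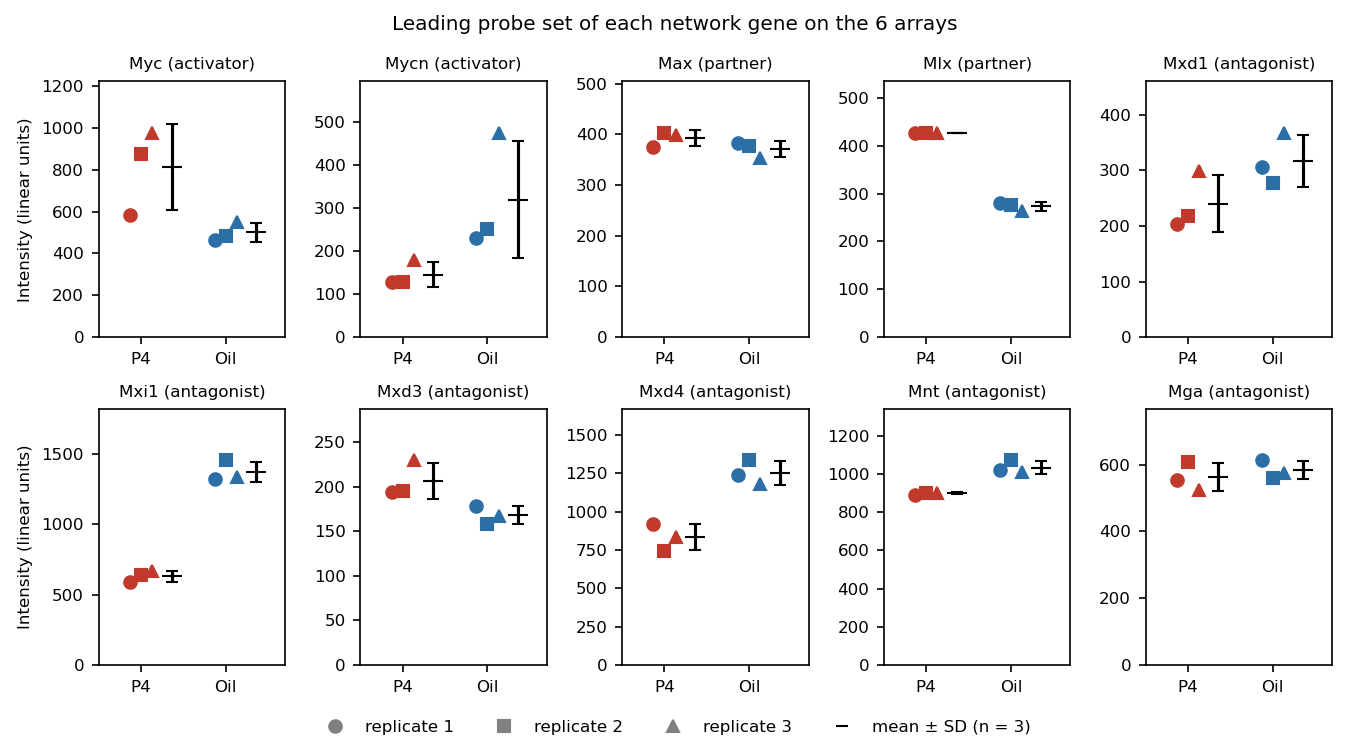
Intensity (linear units, axes from 0) of the leading probe set of each network gene on the 3 P4 arrays (red, left) and the 3 oil arrays (blue, right), with the mean and SD of each group beside the points. Mlx lies near 426 on all P4 arrays and between 263 and 281 on the oil arrays, and Mxi1 shows the opposite order without overlap.

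Among the activators, Myc and Mycn differed in opposite directions. Myc, the founding member, had intensities of 584, 877 and 977 on the P4 arrays, against 467, 484 and 550 on the oil arrays. Every P4 array was above every oil array, but P4 replicate 1 lay close to the highest oil array. The means were 813 ± 205 after P4 and 500.2 ± 44.1 after oil (SD, n = 3 each). The log2 difference of Myc was 0.65 ± 0.18, with a limma adjusted p of 0.0517, just above the threshold. With the replicate number as a block the adjusted p of Myc was 0.00713, and between arrays of the same number its log2 differences were 0.31, 0.84 and 0.81. Without P4 replicate 1 the adjusted p was 0.00427, and without each other array it lay between 0.0721 and 0.163. Scaling also decided the call of Myc: the adjusted p was 0.0443 after quantile normalization, 0.0442 after median centring and 0.0289 after scaling to the hybridisation controls.

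Mycn, the relative of Myc first described in neuroblastoma, had intensities of 127, 128 and 179 on the P4 arrays, against 231, 252 and 474 on the oil arrays. The groups did not overlap, and the replicate numbered 3 was the highest in each group. Mycn fell, with a log2 difference of -1.0 ± 0.26 and a limma adjusted p of 0.0414, or 0.0016 with the replicate block. This call rests on 1 of its 3 probe sets and on single arrays. The other probe sets of Mycn averaged 128 ± 5.77 and 130.5 ± 18.6 after P4, against 133 ± 6.46 and 123.3 ± 8.23 after oil, with log2 differences of -0.05 and 0.07. Their adjusted p in the fit over all probe sets was 0.829 and 0.819, and the mean of the 3 probe sets gave -0.33 with an adjusted p of 0.0894. Without oil replicate 2 or any 1 of the P4 arrays the call of Mycn was lost, with adjusted p from 0.0509 to 0.132, and robust moderation gave 0.0753.

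Of the partners, Mlx rose and Max showed no difference that passed. Mlx had intensities of 426, 427.2 and 425.5 on the P4 arrays, against 281, 277 and 263 on the oil arrays. The P4 values lay within 2 units of each other and far from the oil values. Its mean was 426 ± 0.846 after P4 and 273 ± 9.69 after oil, a ratio of 1.56 (P4 over oil). The log2 difference of Mlx was 0.61 ± 0.08, with a limma adjusted p of 0.00287. A further probe set of Mlx gave 177, 250.1 and 186 on the P4 arrays, against 120.2, 144 and 123 on the oil arrays, again without overlap. It had a log2 difference of 0.59 ± 0.14 and an adjusted p of 0.0316 in the fit over all probe sets, where 8.62% of probe sets were called. The call of Mlx remained with any 1 array left out, at adjusted p values up to 0.0195, and was lost without both arrays numbered 2 (0.0793).

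Max, the obligate partner of MYC, had intensities of 374, 404 and 399.5 on the P4 arrays, against 382, 377 and 354 on the oil arrays. The groups overlapped. The log2 difference of Max was 0.08 ± 0.08 with a 95% interval from -0.11 to 0.26, and the limma adjusted p was 0.627.

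Among the 6 antagonists, 2 fell and none rose, and 3 fell with the replicate block. Mxi1, also called MXD2, had intensities of 590 (589.8), 638 and 668 on the P4 arrays, against 1324, 1456 and 1340 (1339.7) on the oil arrays. All P4 values were less than all oil values by a wide margin. Mxi1 averaged 632 ± 39.4 after P4 and 1373 ± 71.7 after oil, a ratio of 0.46 (P4 over oil). Its log2 difference was -1.10 ± 0.08 with a limma adjusted p of 0.00055, and its call remained under all 22 alternatives tried. Some of these left its log2 difference as it was and could change only its SE and adjusted p. The dimmer probe set of Mxi1 had 84.7, 90.7 and 63.2 on the P4 arrays, against 116, 146 and 119 on the oil arrays. It also fell without overlap, with a log2 difference of -0.59 ± 0.14 and an adjusted p of 0.0318.

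Mxd4 had intensities of 922, 747 and 838 on the P4 arrays, against 1241, 1335 and 1179 on the oil arrays, without overlap. Its log2 difference was -0.58 ± 0.10 with a limma adjusted p of 0.00885, and the call remained with any 1 array left out (up to 0.048). Mxd4 had 4 probe sets that did not all run the same way. A second averaged 239.8 ± 47.3 after P4 and 363 ± 46 after oil, with a log2 difference of -0.58 and an adjusted p of 0.0486. The third averaged 134 ± 9.26 after P4 and 182 ± 20.6 after oil, with a log2 difference of -0.40 that missed the threshold (0.0532). The fourth and dimmest averaged 55.6 ± 1.97 after P4 and 40.2 ± 2.05 after oil, and it rose by 0.35 (adjusted p 0.039). The mean over the 4 probe sets gave -0.30 with an adjusted p of 0.0508.

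Mxd1 and Mxd3, named for their pairing with MAX, did not pass in the fit without the block. Mxd1 had 203, 219 and 299 on the P4 arrays, against 307, 277 and 368 on the oil arrays. The groups overlapped, and each P4 array lay below the oil array of its own number, by 0.56, 0.32 and 0.29 on the log2 scale. Its log2 difference was -0.39 ± 0.16 with a limma adjusted p of 0.166, or 0.0202 with the replicate block. A second probe set of Mxd1 had 88, 98.5 and 259 on the P4 arrays, against 92.5, 99.8 and 236 on the oil arrays. It was high on both arrays numbered 3 and had a log2 difference of 0.02. Mxd3 had 194, 195 and 229 on the P4 arrays, against 178, 158 and 167 on the oil arrays, without overlap. Its log2 difference was 0.27 ± 0.10 with an adjusted p of 0.123, while its further probe sets had 0.02 and -0.01. Mxd3 passed after scaling to the hybridisation controls (0.039).

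Mnt and Mga, the large antagonists, changed by less. Mnt had 893, 903 and 903 on the P4 arrays, against 1020 (1019.98), 1073 and 1012 on the oil arrays. These groups did not overlap, with a log2 difference of -0.20 ± 0.07, a limma adjusted p of 0.105 and 0.0856 with the block. The dimmer probe set of Mnt had a log2 difference of 0.16 that also did not pass (0.598). Mga had 554, 608 and 525 on the P4 arrays, against 613, 560.3 and 576 on the oil arrays, with overlap. Its log2 difference was -0.05 ± 0.09, with a 95% interval from -0.25 to 0.15 and an adjusted p of 0.786, and it turned positive after scaling to the hybridisation controls (0.07). Its other 4 probe sets had log2 differences from -0.18 to 0.16, none of which passed.

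**Figure D2:**
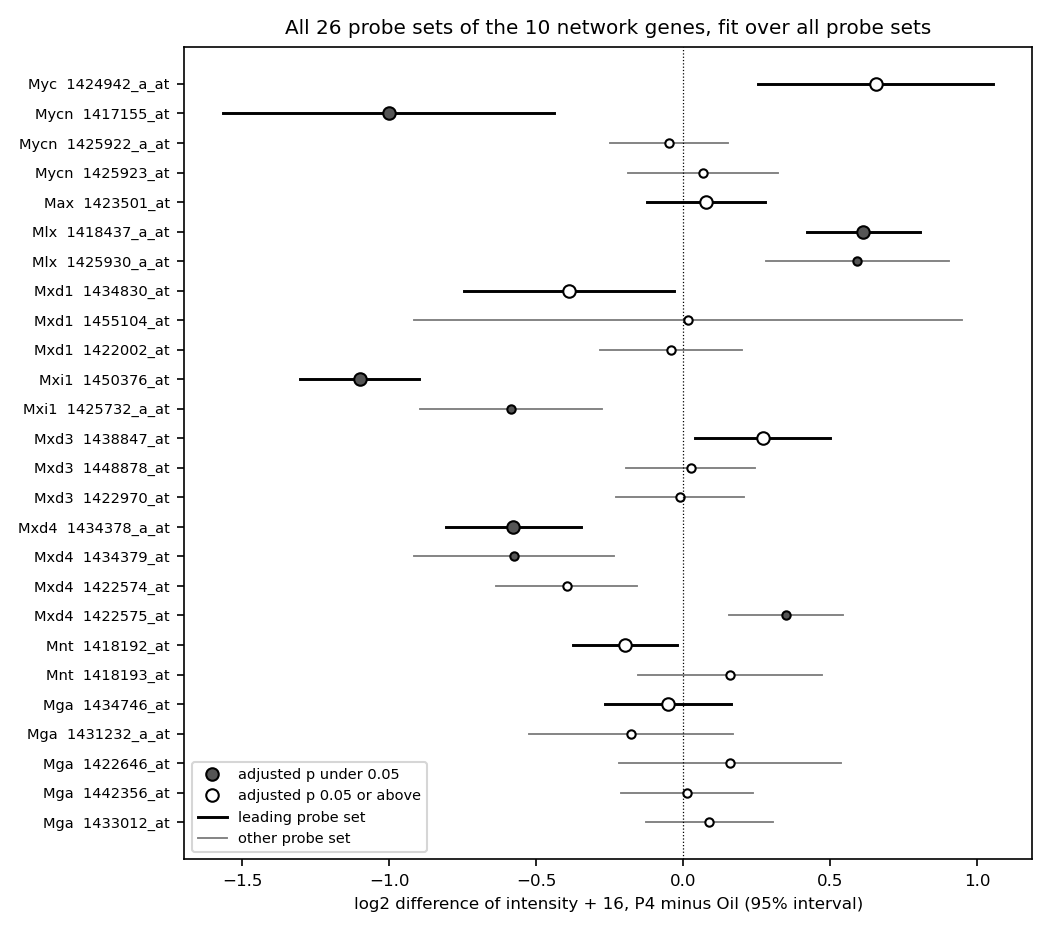
Log2 difference (P4 minus oil, of intensity + 16) with its 95% interval for all 26 probe sets of the network, from the fit over all probe sets; filled points had an adjusted p under 0.05. Of the 26, 8 were called, 3 higher and 5 lower, against 8.62% of all probe sets called. Both probe sets of Mlx lie right of 0 and both of Mxi1 left of 0, while those of Mycn and Mxd4 differ among themselves.

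Activators and antagonists were set side by side on each array, as the mean log2 value of the 2 activators and of the 6 antagonists, each gene centred on its oil mean. The antagonist mean was -0.39, -0.37 and -0.26 on the P4 arrays, against 0.01, -0.01 and 0.01 on the oil arrays. All P4 arrays lay below all oil arrays. Of all genes taken singly, 17.5% had P4 below oil without overlap. Mxi1 (-1.10) and Mxd4 (-0.58) had the largest log2 differences of the 6 antagonists. Mxd1, Mnt and Mga had -0.39, -0.20 and -0.05, and Mxd3 had 0.27. The lower mean is therefore not a fall shared by all 6. The activator mean was -0.47, -0.18 and 0.12 on the P4 arrays, against -0.23, -0.15 and 0.38 on the oil arrays, and the groups overlapped, since Myc and Mycn pulled in opposite directions. The activator mean minus the antagonist mean was -0.08, 0.20 and 0.38 on the P4 arrays, against -0.24, -0.13 and 0.37 on the oil arrays. Its difference between groups, 0.17, was smaller than the SD of 0.23 within the P4 arrays and 0.33 within the oil arrays. Between arrays of the same number it was 0.16, 0.33 and 0.01, positive each time, while the activator mean differed by -0.24, -0.03 and -0.26 and the antagonist mean by -0.39, -0.36 and -0.27.

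Arrays of the same replicate number gave the same direction for 8 of the 10 genes, Max and Mga being the exceptions. Of the 6 antagonists, 4 were lower after P4 in all 3 such comparisons (Mxd1, Mxi1, Mxd4 and Mnt). Mxi1 had log2 differences of -1.15, -1.17 and -0.99, against -0.42, -0.83 and -0.48 for Mxd4. Mycn had -0.79, -0.89 and -1.33.

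**Figure D3:**
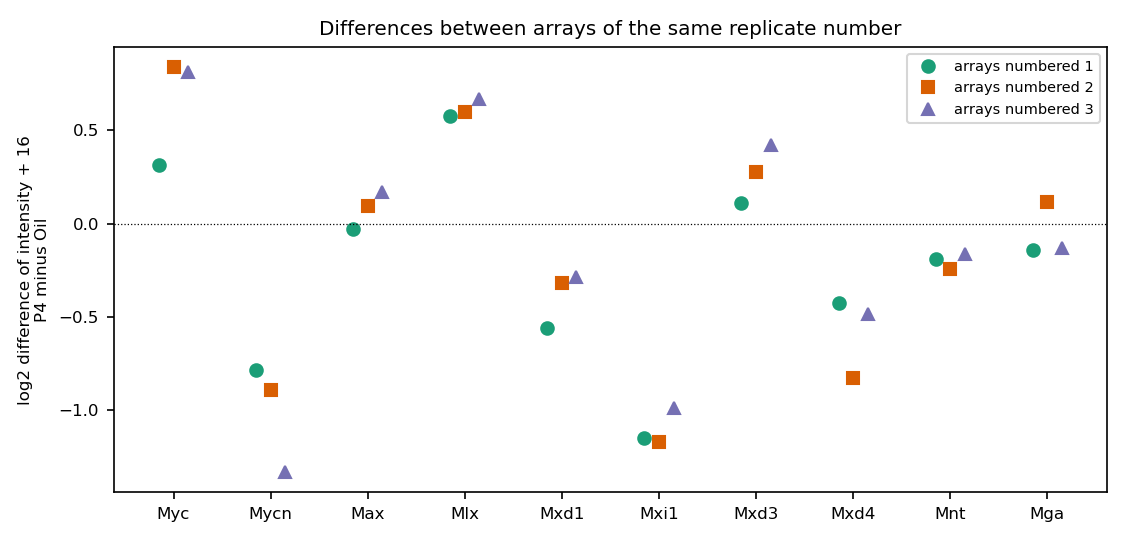
Log2 difference of intensity + 16, P4 minus oil, between the arrays of each replicate number for the 10 network genes. All points of Mlx lie between 0.57 and 0.66 and all points of Mxi1 between -1.17 and -0.99, whereas Max and Mga have points on both sides of 0.

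The E-box, CACGTG, which reads the same on both strands, was looked for in the promoters of the network genes because it is the site that the network itself binds. Windows of 300 bases (250 before to 50 after the start) were taken from RefSeq, build GRCm38.p6; 9 of the 10 genes matched, with 11 windows. The motif was present in 4 windows, those of Mlx, Mxd4, Mnt and Max, against 7.15% of the 32851 windows of all genes. Counted from the start that each window was built on, it began 40 bases before for Mlx, 219 for Mxd4, 123 for Mnt and 3 for Max. For Mlx, Mnt and Max this start is not the outermost base of the gene, which is 101086707, 74830806 and 76962323. The stretches of Mlx and Max given below therefore lie within the span of the gene. The E-box (capitals) is given with 20 bases on each side, 5′ to 3′ on the gene's strand, for the member that rose (Mlx), a member that fell (Mxd4) and the others that hold it, with the coordinates of each stretch. A match is a description of these letters.
Mlx, chr11:101087230-101087275, plus strand: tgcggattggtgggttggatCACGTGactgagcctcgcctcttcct
Mxd4, chr5:34187904-34187949, minus strand: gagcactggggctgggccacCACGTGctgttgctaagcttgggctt
Mnt, chr11:74830781-74830826, plus strand: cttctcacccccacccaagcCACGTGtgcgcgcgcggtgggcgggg
Max, chr12:76962226-76962271, minus strand: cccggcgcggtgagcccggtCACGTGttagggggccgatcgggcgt
The hormone response half-site AGAACA, searched on both strands, was in 0 of the 11 windows and in 19% (18.97%) of all windows. The GATA site AGATAA, also on both strands, was in 0 of the 11 and in 11.2% of all windows. The non-canonical E-box CACGCG and the full palindromic hormone response element were searched the same way, and were in 1 of the 11 (Mga) and 9.27% of all windows, and in 0 of the 11 and 0.0244% of all windows. All 5 motifs were chosen after the expression values had been seen, and no match says only that these letters are not in these windows.

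Genes that MYC is known to induce were mostly higher after P4. Of the 30 listed, all measured, 19 rose and 0 fell at the threshold, against 6.08% of all genes called higher and 6.94% lower, and their median log2 difference was 0.62, against -0.01 for all genes. Without oil replicate 2 the count was 11 (485 of all genes higher, against 1106 with all arrays). Without both arrays numbered 2 it was 5 (99 of all genes), and with the replicate block it was 23 (9.29% of all genes). With the dimmest 30% of genes removed it was 19, where 1204 of 12736 genes were higher. Srm, the spermidine synthase of the polyamine pathway, had 1143, 1682 and 1586 on the P4 arrays, against 476, 476 and 500.2 on the oil arrays, a log2 difference of 1.55 ± 0.14 (limma adjusted p 0.00093). Mthfd1, an enzyme of folate metabolism, had 1617, 1288 and 1351 on the P4 arrays, against 542, 509 and 517 on the oil arrays, a log2 difference of 1.41 ± 0.10 (0.000547). For both genes the lowest P4 array was above the highest oil array by more than the whole range of the oil arrays. Nme1, a nucleoside diphosphate kinase, rose by 1.06 ± 0.21 (0.0165), a call lost without any 1 of oil replicates 1 and 2 or P4 replicates 2 and 3 (up to 0.0682). Nop56, a protein of small nucleolar ribonucleoproteins, rose by 0.89 ± 0.08 (0.00105). Ribosome production genes were already known to be higher in these data when this list was drawn up, so its direction is not independent evidence.

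Genes that MYC is known to repress were more often lower than higher. Of 10 listed and measured, 5 fell and 1 rose, against 6.94% of all genes called lower and 6.08% higher, with a median log2 difference of -0.35. With the replicate block 5 were lower and 2 higher, against 11.6% and 9.29% of all genes. Cdkn1a was the one added among the higher, with 0.47 ± 0.17 (limma adjusted p 0.107, or 0.0052 with the block). This list too was drawn up with earlier results of these data known. Without both arrays numbered 2, 0 were lower by limma, where 72 of all genes were lower, and without oil replicate 2 the count was 2, where 508 of all genes were lower, against 1262 with all arrays. Gadd45a, a stress-induced growth arrest gene, had 136, 202 and 184 on the P4 arrays, against 288, 353.5 and 353.4 on the oil arrays, a log2 difference of -0.88 ± 0.15 (limma adjusted p 0.00932). Cdkn1b, the cyclin-dependent kinase inhibitor p27, averaged 1692 ± 134 after P4 and 2533 ± 163 after oil (-0.58 ± 0.09, 0.0057). Cdkn2c, another inhibitor of cyclin-dependent kinases, had -0.46 ± 0.09 (0.0128) and lost its call without oil replicate 2 (0.0591). Ndrg1, which takes its name from downregulation by MYCN, had -0.48 ± 0.11 (0.0286) and lost its call when any 1 of oil replicates 1 and 2 and P4 replicate 3 was left out (up to 0.109), after scaling to the hybridisation controls (0.114) and with the mean of its probe sets (0.0539). The 1 gene that rose in the fit without the block was Gas1, a growth arrest gene, with 0.39 ± 0.09 (limma adjusted p 0.0286). The naming of Gas1 and of Cdkn1a followed their values.

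Around Mlx, glucose-responsive genes were called in both directions. Of 6 listed, 1 rose and 1 fell, against 6.08% of all genes called higher and 6.94% lower. With the replicate block 1 was higher and 2 lower, against 9.29% and 11.6% of all genes, Arrdc4 being added. Arrdc4 averaged 421 ± 93.7 after P4 and 646 ± 101 after oil, without overlap (-0.61 ± 0.17, limma adjusted p 0.0515, or 0.029 with the block). Acaca, the acetyl-CoA carboxylase that starts fatty acid synthesis, had 1383, 1114 and 887 on the P4 arrays, against 532, 508 and 479 on the oil arrays (1.11 ± 0.15, limma adjusted p 0.00403). Txnip, an inhibitor of thioredoxin and of glucose uptake, averaged 5454 ± 768 after P4 and 9089 ± 730 after oil (-0.74 ± 0.11, 0.00531). Mlxip, which pairs with MLX, had 619, 671 and 591 on the P4 arrays, against 771, 769 and 789.5 on the oil arrays. Its log2 difference was -0.30 ± 0.08 (0.0418), a call lost without any 1 array (0.0521 to 0.128), after median centring (0.063), after scaling to the hybridisation controls (0.276) and without a trend in the moderation (0.0504). Mlxipl, its relative best known in liver, averaged 118.4 ± 10.2 after P4 and 114.8 ± 13.2 after oil (0.04 ± 0.11, 0.874). Mycl, a further MYC family gene, averaged 174 ± 26.4 after P4 and 239.7 ± 21.1 after oil; its log2 difference of -0.43 ± 0.12 missed the threshold (0.0555) and passed with the replicate block (0.0156).

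In the lists of cofactors, turnover regulators, corepressors and MGA partners, 10% to 22.2% of the genes were called, against 13% of all genes. Without the dimmest 30% of genes, 20.4% of the remaining genes were called. With the replicate block, 3 cofactors were higher and 1 lower, 1 turnover gene higher and 2 lower, 2 corepressor genes higher and 2 lower, and 1 MGA partner higher and 2 lower, against 20.9% of all genes called. Of 10 cofactors of MYC, 1 rose, the acetyltransferase Kat2a (0.33 ± 0.08, limma adjusted p 0.0343), a call lost without any 1 array except P4 replicate 1 (up to 0.121) and with the mean of its probe sets (0.0862). Trrap, the scaffold of MYC-bound acetyltransferases, averaged 939 ± 126 after P4 and 1117 ± 133 after oil (-0.25 ± 0.12, 0.248, or 0.0452 with the block), and Ep400 901 ± 73.9 after P4 and 930 (929.6) ± 86.2 after oil. Of 11 measured regulators of MYC turnover and activity, 0 rose and 2 fell: Pim1, a kinase that cooperates with MYC (-0.64 ± 0.13, 0.0155), and the phosphatase subunit Ppp2r5a (-0.37 ± 0.08, 0.0232). Pim1 lost its call without oil replicate 2 or P4 replicate 2 (up to 0.0665), and Ppp2r5a without any 1 of 4 arrays (up to 0.0999) after scaling to the hybridisation controls (0.153) and with the mean of its probe sets (0.236).

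Of 12 measured members of the SIN3 and histone deacetylase corepressor, 0 rose and 2 fell, Sap130 (-0.51 ± 0.08, limma adjusted p 0.00838) and Arid4a (-0.33 ± 0.09, 0.0428). Arid4a lost its call without any 1 array (0.0516 to 0.127), after quantile normalization (0.0521), median centring (0.0588) and scaling to the hybridisation controls (0.21), and with the mean of its probe sets (0.0588). Of 9 measured partners of MGA in its polycomb complex, Tfdp1 rose (0.51 ± 0.13, 0.0444) and Tfdp2 fell (-0.52 ± 0.12, 0.0257). Both are dimerisation partners of E2F factors, and each lost its call with single arrays left out (up to 0.136 and 0.0953). Tfdp2 also lost its call after scaling to the hybridisation controls (0.0714), and Tfdp1 with the mean of all probe sets (0.052) and without a trend in the moderation (0.0534). In the proliferation list 0 of 9 measured genes were called by limma, and 0 had an unadjusted p under 0.05. Of the 9, 8 had a positive log2 difference, and the median was 0.17. Their SE ran from 0.17 to 0.62, so a difference of that size could not be told from 0. Mcm2, a helicase subunit of replication, averaged 576 ± 118 after P4 and 568 ± 102 after oil, and Top2a, a topoisomerase of dividing cells, 612 ± 321 after P4 and 455 ± 412 after oil. Of the called genes named from these lists, only Srm, Mthfd1 and Nop56 remained called without both arrays numbered 2.

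**Figure D4:**
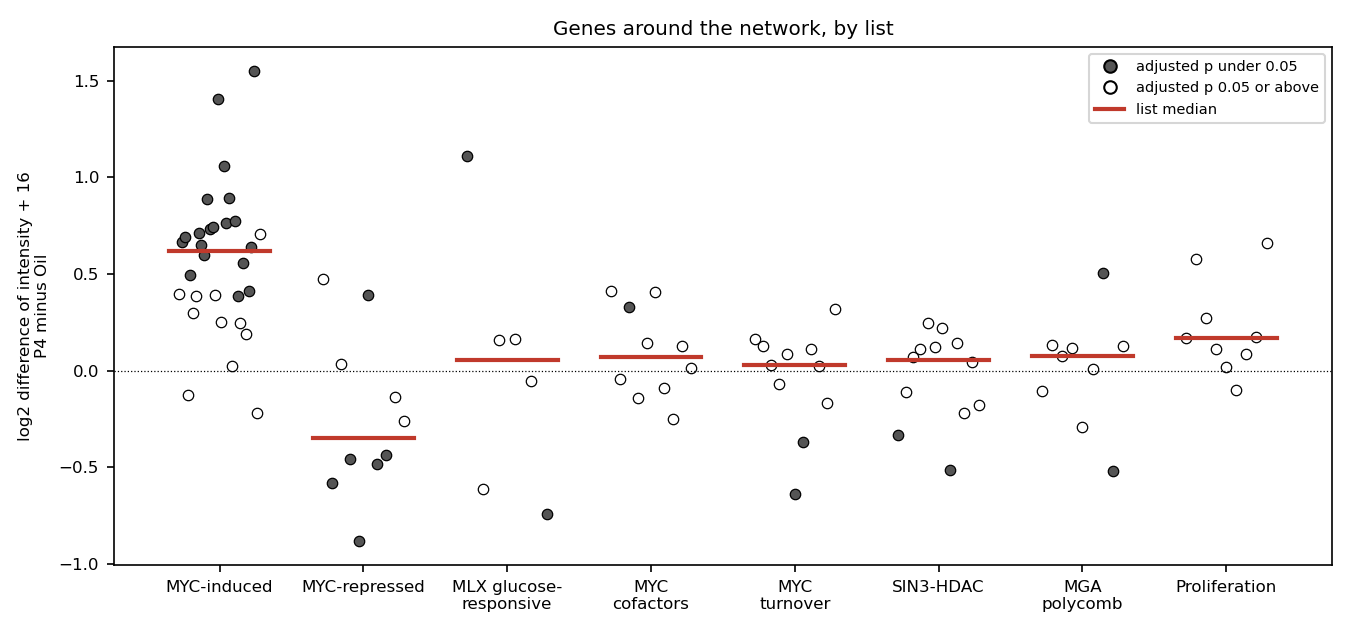
Log2 difference (P4 minus oil, of intensity + 16) of each measured gene of 8 lists around the network; filled points had a limma adjusted p under 0.05 and red bars are list medians. The MYC-induced list has a median of 0.62 and the MYC-repressed list one of -0.35, while the corepressor, cofactor, turnover and MGA lists lie between 0.03 and 0.08.

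By Euclidean distance between log2 values over the 6 arrays, each gene centred on its mean, the genes nearest to Myc were Gspt1, Idh3a, Ranbp1, Wdr12 and Gnpnat1, at distances from 0.139 to 0.21. Gspt1, a translation termination factor, had 767, 1079 and 1150 (1149.7) on the P4 arrays, against 620 (619.8), 599 and 695 on the oil arrays. Like Myc, it was lowest on replicate 1 among the P4 arrays. The distances are a description over 6 arrays that share treatment group and array number.

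Markers of cell types present in the uterus also varied. Over all genes 13% were called, and 20.9% with the replicate block. Of 5 epithelial markers 0 were called by limma, 2 had an unadjusted p under 0.05 and 3 were lower with the replicate block. They summed to 11411, 7690 (7690.01) and 12901 on the P4 arrays, against 13241, 12904 and 14684 on the oil arrays. The lowest sum was that of 1 array, P4 replicate 2. Smooth muscle markers (5 genes, 0 called) summed to 36820 (36820.4) to 41742 after P4, against 39680 (39680.2) to 40236 after oil. Of 5 stromal markers 1 rose (Hand2) and of 5 endothelial markers 1 fell (Tek), with sums of 24642 to 29750 (29750.5) and 4029 to 4381 after P4, against 28021 to 30015 and 4509 to 4979 after oil. With the replicate block, 2 stromal markers were higher, Col1a1 being added (0.0247), and 2 endothelial markers lower, Pecam1 being added (0.0229). Leukocyte markers (7 genes, 0 called) summed to 1781, 5673 and 5563 on the P4 arrays, against 2316, 3352 and 6292 on the oil arrays. Granulocyte markers (4 genes, 0 called) summed to 448, 6718.5 and 9349 on the P4 arrays, against 451, 419 and 6031 on the oil arrays. Of the smooth muscle, leukocyte and granulocyte markers 0 had an unadjusted p under 0.05. No marker was listed at 0. Within each group Myc was lowest on the array with the lowest leukocyte sum. This match was seen after the values were known, and a relation was not tested. After P4 the highest leukocyte sum was on replicate 2, while Myc was highest on replicate 3. Proliferation genes summed to 1905, 2457 and 4667 on the P4 arrays, against 2090 (2089.7), 1592.5 and 4371 on the oil arrays, with both arrays numbered 3 the highest, as for Myc, Mycn and Mxd1. A positive log2 difference was seen in 0 of 5 epithelial and 0 of 5 endothelial markers. It was seen in 3 of 5 stromal, 2 of 5 smooth muscle, 7 of 7 leukocyte and 4 of 4 granulocyte markers. The leukocyte differences were small, from 0.04 to 0.12, with SE from 0.12 to 0.57. Their sum was lower after P4 between arrays numbered 1 and 3, and higher between those numbered 2. These signs are therefore not a rise of leukocyte markers. The part of these marker differences in the values of the network genes, Mxi1, Mxd4 and Mlx among them, was not tested. In bulk tissue fewer cells of a type and less RNA per cell cannot be told apart.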

How the data were processed

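Total RNA of 6 uterine samples was made into biotin cRNA for mouse expression arrays, per the labels. The authors' deposited file gives a linear intensity for every probe set on every array; its summarisation and scaling are not given in the sources used here. Array medians ran from 117 to 123, and the number of arrays limits the precision. The 64 control probe sets, 932 with several symbols and 9160 unnamed here stayed out of the gene test, which left 34945 probe sets with 1 symbol. Of these, 34741 matched the RefSeq table (GRCm38.p6) by gene ID. The leading probe set of a gene was that of highest mean log2(intensity + 16). The rule for the genes says only highest mean; the log2 scale was settled on after both scales had been run, because it gave the count of 2368 called genes known from an earlier analysis. The linear mean gave 2375, with another leading probe set for 28 genes and for 0 of the 10 network genes.

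The test was limma 3.58.1 (R 4.3.3, lmFit, then eBayes with a mean trend) on log2(intensity + 16), with all 6 arrays and no covariate. Benjamini-Hochberg adjustment ran across 18193 genes at a threshold of 0.05. A trial on simulated data drew noise independently for each gene and array. It lacked the shared variation of same-numbered arrays given next, and so does not speak to it. Replicate numbers recur in both groups. Same-numbered arrays had deviations from their group means with correlations of 0.53, 0.13 and 0.64, each over 0.1, a relation the labels do not state; calls come from the fit without the block, and values with the replicate block are given beside them where they change a call; oil replicate 2 correlated more with P4 replicate 1 (0.29). Members and lists were chosen with earlier results of these data known. The text names all members, up to 4 called genes of each list by size, up to 2 of highest intensity where fewer than 2 were called, and the 5 genes nearest to Myc. Gas1, Arrdc4, Cdkn1a and single markers were named after their values had been seen. Sap18, Rybp and Ccnb1 are not analysed here. Alternatives were other scalings, probe set choices, filters on dim genes (30% and 50%), pseudocounts of 1 and 50, other moderation, the replicate block and arrays left out. Figures were drawn with matplotlib 3.10.9.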

Additional observations from a re-analysis of the deposited data

How the results depend on the processing

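Mxi1 was called under all 22 alternatives, Mlx under all but 1 and Mxd4 under all but 2, while Myc passed under 8 and Mycn lost its call under 8 of 21. Chosen after seeing the data were leaving out both arrays numbered 1 or 3, the leading probe set by linear mean, and every alternative for the gene lists, their named genes and the genes nearest to Myc. Over all genes, main counts were 1106 higher and 1262 lower. Scaling to the hybridisation controls gave 1838 higher and 628 lower (74.5% of calls higher, against 46.7%). The replicate block gave 1690 higher and 2111 lower. Without both arrays numbered 1 the counts were 542 and 512, without those numbered 2 they were 99 and 72, and without those numbered 3 683 were lower. With 1 array left out they ran from 485 to 1075 higher and from 508 to 1227 lower; leaving out oil replicate 1 gave 558 higher and 612 lower, oil replicate 2 gave 485 and 508, and P4 replicate 2 gave 640 and 761.

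Of the network genes, 1 was higher and 3 lower. The number higher was 2 with quantile normalization, median centring, the dimmest 30% or 50% of genes removed, the replicate block, or both arrays numbered 1 left out, 3 with scaling to the hybridisation controls, 0 without both arrays numbered 2, and 1 to 2 with 1 array left out. The number lower was 1 with the mean of all probe sets, 1 without both arrays numbered 2, and 2 to 3 with 1 array left out. The MYC-induced list had 19 higher, 5 without both arrays numbered 2 and 11 to 18 with 1 array left out, and 0 lower under every alternative. The MYC-repressed list had 1 higher, 0 with quantile normalization, 2 with the block, 0 without both arrays numbered 2 or 3, and 0 to 1 with 1 array left out. It had 5 lower, 3 with scaling to the hybridisation controls, 2, 0 and 3 without both arrays numbered 1, 2 and 3, and 2 to 5 with 1 array left out. The difference between activators and antagonists ran from 0.0486 to 0.353 with 1 array left out. Values near 0 changed sign. Mga was 0.073 with scaling to the hybridisation controls and 0.0057 with the mean of all probe sets. Ep400 was 0.083 with that scaling, 0.030 without oil replicate 1, 0.017 when P4 replicate 3 was left out, and at the lowest -0.0998 without P4 replicate 1. Mlxipl was -0.042 without oil replicate 2, -0.018 without P4 replicate 1 and at most 0.0999 without oil replicate 1. Mcm2 was -0.0017 without probe sets open to cross-hybridisation, -0.029 without both arrays numbered 2, -0.107 without oil replicate 2, -0.142 without P4 replicate 3 and at most 0.146 without oil replicate 3. The cause of these shifts was not tested. The replicate block changed the calls of Myc, Mxd1, Mycl, Trrap and Wdr12 (adjusted p 0.00713, 0.0202, 0.0156, 0.0452 and 0.0105) and of no other gene that the naming rule gave.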
